A study of Homo sapiens with 4 samples.

Results

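The BCL2 family genes were followed across 4 microarrays of PC3 cells, an established human line from a prostate cancer metastasis that is known to grow without androgen. The 10 genes were BCL2, BCL2L1, MCL1, BCL2A1, BAX, BAK1, BCL2L11, BBC3, PMAIP1 and BID. They were chosen as pro-survival and pro-death members of the family, and they make up 10 of the 19102 genes named on the array and 16 of its 34127 probes. The probes were found through the transcript accession that each one carries in the scanner files, which hold no column of gene names.

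All cells were infected with a lentiviral shRNA for 48 h and then selected with puromycin, so no array holds uninfected cells. The control shRNA was directed against GFP, and the ALKBH3 shRNA against ALKBH3, an oxidative demethylase that removes alkyl groups from nucleic acids. The labels say only ALKBH3 shRNA and give no number or sequence. Whether both ALKBH3 shRNA arrays carry the same sequence against the gene is thus not known from them. Cells were collected after 48 h or 96 h of selection, which gives 1 array for each shRNA at each time point and 2 arrays for each shRNA. The study asked whether depletion of ALKBH3 changes expression, and the family bears on it because its members set the threshold for cell death. Each value below is the log2 of the processed Cy3 signal relative to the 75th percentile of its array, so that 0 is the 75th percentile and a difference of 1 is 2-fold. A level of 1 probe says nothing of the level of another, since probes differ in affinity. Bulk RNA cannot tell fewer expressing cells from less RNA in each cell.

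Proteins of the BCL2 family decide whether the outer mitochondrial membrane is opened during intrinsic apoptosis. Pro-survival members (BCL2, BCL-XL from BCL2L1, MCL1 and BFL1 from BCL2A1) hold the pore-forming effectors BAX and BAK1 in check. BH3-only members (BIM from BCL2L11, PUMA from BBC3, NOXA from PMAIP1, and BID) bind the pro-survival proteins or the effectors and promote pore formation, after which cytochrome c is released and caspases are activated. Several are regulated as proteins, by cleavage of BID or rapid turnover of MCL1 and NOXA, which an RNA array does not measure.

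The target itself was lower in both ALKBH3 shRNA arrays on both of its probes. Probe A_33_P3225250 gave log2 signals of -0.74 (48 h) and -0.89 (96 h) in control cells against -2.48 and -2.41 in ALKBH3 shRNA cells, a log2 difference of -1.63 (limma adjusted p = 0.247, and 0.0289 in a fit that pairs the arrays of a time point as a replicate block). The other probe, A_23_P35989, differed by -2.05 (limma adjusted p = 0.228, and 0.0176 with the block). The 5 epithelial markers KRT8, KRT18, KRT19, EPCAM and CDH1 were well above background on every array, whereas KLK3, a defining gene of androgen-responsive prostate cells, was on none. Each of the 4 leukocyte, 2 endothelial and 3 fibroblast markers also had a probe above background on every array. In ALKBH3 shRNA 3 of the 5 epithelial, 2 of the 4 leukocyte, 0 of the 2 endothelial and 2 of the 3 fibroblast markers were higher. EPCAM was at a log2 difference of 0.98, CDH1 at 0.74, COL1A1 at 0.71, DCN at 0.65, COL3A1 at -0.43 and PECAM1 at -0.59. Their part in the results was not tested. The 75th percentile of signal ranged from 2150 to 2394 over the arrays, 67.0 to 70.9% of probes were well above background, and 0 spots were saturated. With so few arrays, precision is limited throughout. Nothing in the labels says that the cultures were independent, so each p measures only the spread between these arrays, with an shRNA repeated only across time points.

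Every one of the 10 genes had at least 1 probe well above background on 3 or more of the 4 arrays. BCL2 lay near the limit of detection, and all probes of the other 9 genes were well above background on all 4 arrays. In all, 15 of the 16 probes were bright enough to be tested. The remaining one was a BCL2 probe that was well above background on 1 array of each shRNA.

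None of the family passed the cutoffs of the study after ALKBH3 knockdown. With a 2-fold change and an unadjusted limma p below 0.05, 0 of 15 member probes were called, against 1.12% of all 23244 probes tested. At an unadjusted p below 0.05 alone the number was again 0, against 7.66% of all probes. The limma adjusted p of the members ran from 0.757 to 0.996. Of the 15 probes 9 were higher and 6 lower in ALKBH3 shRNA, with a median log2 difference of 0.024 and a range from -0.38 to 0.34, beside a median of 0.0028 over all probes. With each array centred on its median in place of its 75th percentile, 7 of the 15 were higher.

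The sizes were of the same order as those of the array as a whole. The median absolute log2 difference was 0.093 over the member probes and 0.126 over all probes tested. In 4 of 15 member probes both arrays of one shRNA lay above both arrays of the other, against 36% of all probes. Of these, 3 were higher in ALKBH3 shRNA (1 BCL2L11 probe and both BID probes) and 1 was lower (a BAX probe). The direction was the same at 48 h and 96 h for 7 of 15 member probes, or 46.7%, beside 68.7% of all probes. The median half-width of the limma 95% interval was 0.46, and 0.25 in the fit with the replicate block. Changes up to about these sizes could not be told from 0 for a typical member in the respective fit.

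**Figure D1:**
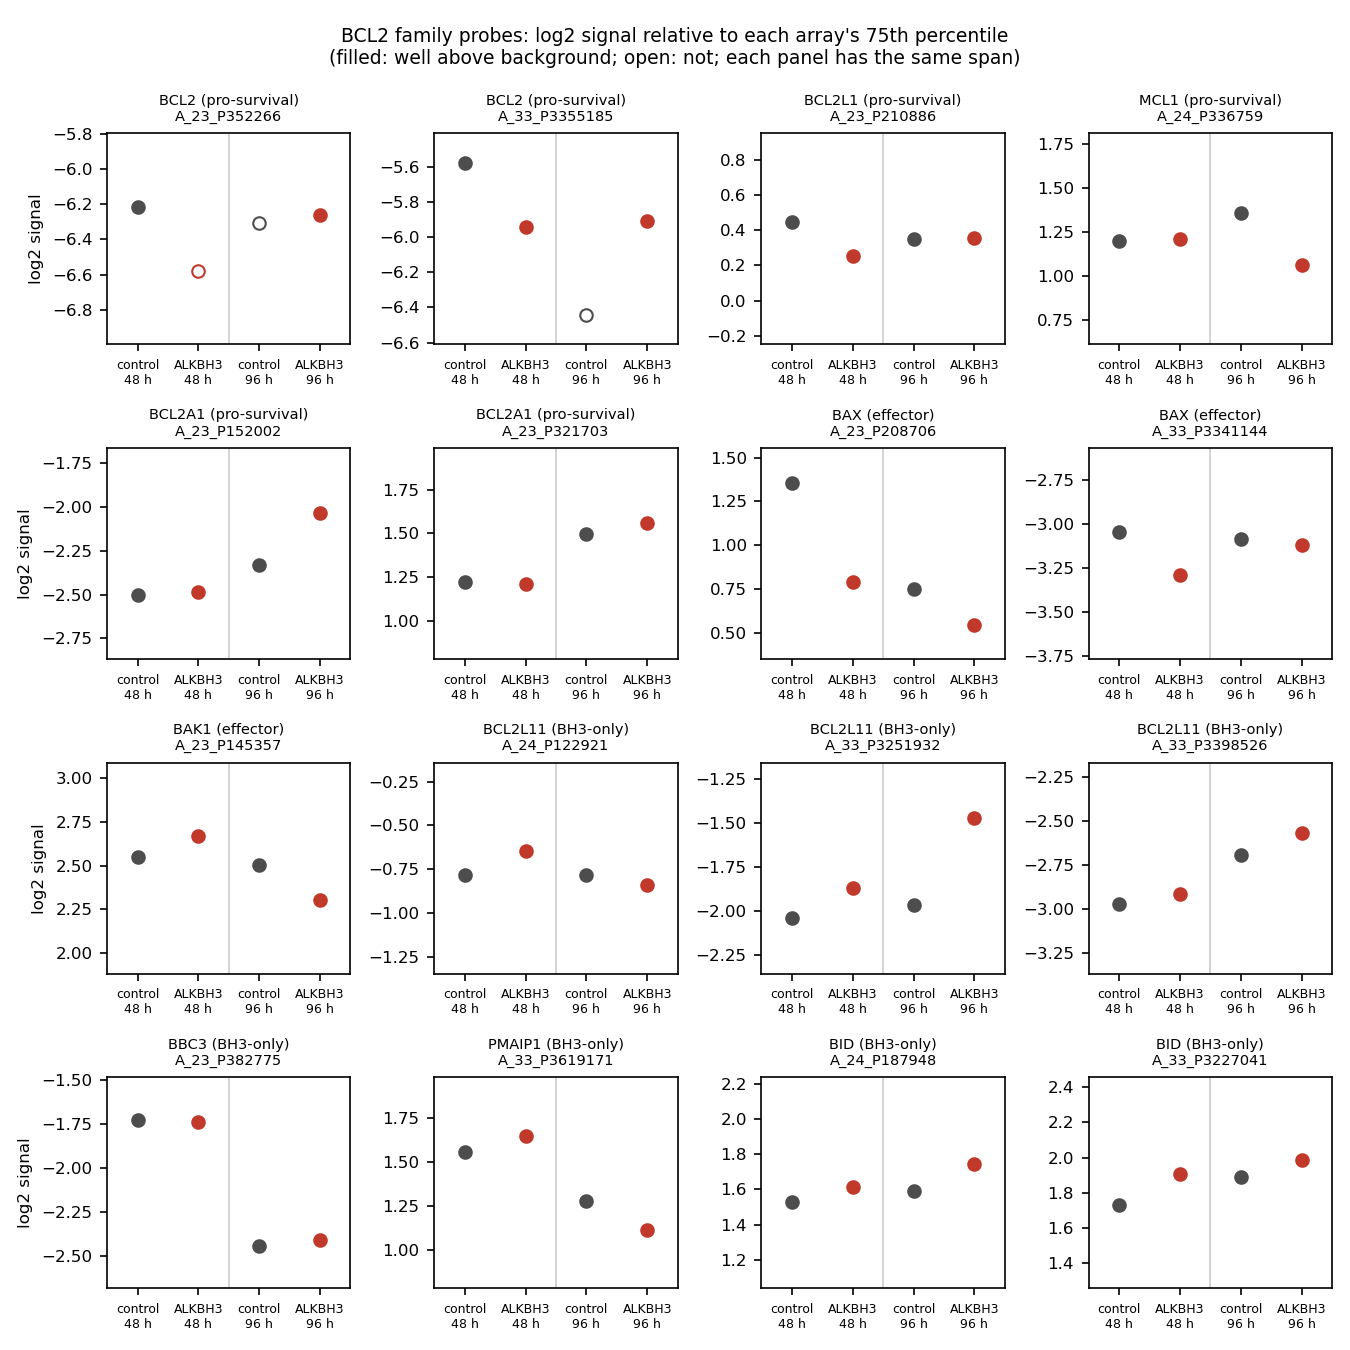
Log2 signal relative to the 75th percentile of each array (y axis, in log2 units) for the 16 BCL2 family probes on the 4 arrays (x axis), with control shRNA in grey, ALKBH3 shRNA in red, open points where the probe was not well above background, and the same span in every panel. The 2 BBC3 points at 48 h lie above those at 96 h, while the points of each shRNA overlap in 12 of the 16 panels.

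The promoters of BAX and BBC3 are shown because these genes gave the largest difference of the family between shRNAs and between time points. Both windows come from RefSeq (GRCh38.p14), run 5′ to 3′ in the direction of the gene, and hold 250 bases before and 50 after an annotated start. Capitals mark CACGTG, the E-box motif, which reads the same on both strands. The BAX window is chr19:48954625-48954924, plus strand, and the BBC3 window is chr19:47232618-47232917, minus strand.
BAX: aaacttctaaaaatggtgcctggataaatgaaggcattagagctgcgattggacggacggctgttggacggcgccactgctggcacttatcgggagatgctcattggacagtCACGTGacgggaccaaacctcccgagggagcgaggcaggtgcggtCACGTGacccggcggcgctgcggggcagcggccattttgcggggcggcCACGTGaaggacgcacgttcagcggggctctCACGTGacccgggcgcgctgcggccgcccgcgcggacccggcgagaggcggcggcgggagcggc
BBC3: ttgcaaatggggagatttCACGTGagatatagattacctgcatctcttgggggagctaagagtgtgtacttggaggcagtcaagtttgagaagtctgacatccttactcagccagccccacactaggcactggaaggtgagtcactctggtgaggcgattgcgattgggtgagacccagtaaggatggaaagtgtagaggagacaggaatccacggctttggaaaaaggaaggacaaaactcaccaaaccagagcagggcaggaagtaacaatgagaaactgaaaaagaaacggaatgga
The BAX window holds 4 matches and the BBC3 window 1, and 7.26% of 35116 promoter windows of the same length hold at least 1. Of the 9 members with a window in the table, BID was the other one with a match, in 2 of its 5 windows. GGGCGG, a GC box, was searched on both strands and matched 2 times in the BAX window and 0 times in that of BBC3, while 45% of all windows have it. TGANTCA, an AP-1 motif with N for any base, matched 0 times in the BAX window and 1 time in that of BBC3. Of all windows 7.71% have it. NF-kB and CRE motifs were also searched and matched neither window, so the E-box was the only motif searched that both hold. A match describes letters in a window and not binding, which these arrays do not measure.

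Among the pro-survival genes no probe separated the shRNAs. BCL2 (chr18:63123346-63320090, GRCh38.p14), the founding member of the family, was read by 2 probes. On probe A_33_P3355185 the log2 signal was -5.58 in control and -5.94 in ALKBH3 shRNA at 48 h, and -6.44 in control and -5.91 in ALKBH3 shRNA at 96 h. The control array at 96 h was not well above background there, and the difference ran from -0.36 at 48 h to 0.53 at 96 h (limma adjusted p = 0.986). The probe with 10 spots, A_23_P352266, gave -6.22, -6.58, -6.31 and -6.26 in the same order, with 9, 2, 2 and 5 of its spots well above background, and was not tested.

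BCL2L1 (chr20:31664452-31723963), which encodes BCL-XL, had the tightest values of the pro-survival genes. Its probe is printed in 10 spots per array, and the spots of an array had a standard deviation of 0.051 to 0.070 log2 units. The log2 signal was 0.45 in control and 0.26 in ALKBH3 shRNA at 48 h, then 0.35 and 0.36 at 96 h. The control array at 48 h was thus the highest, the ALKBH3 shRNA array at 48 h the lowest, and the difference over all arrays was -0.09 (95% interval -0.42 to 0.23).

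MCL1 (chr1:150574558-150579610) encodes a short-lived survival factor. Its log2 signal was 1.20 in control and 1.21 in ALKBH3 shRNA at 48 h, then 1.36 and 1.07 at 96 h. The lowest and the highest array were those of 96 h, and the shRNAs overlapped (log2 difference -0.14, 95% interval -0.50 to 0.21).

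BCL2A1 (chr15:79960892-79971196), a target of NF-kB best known from blood cells, had 2 probes that were close to equal between the shRNAs at 48 h. On A_23_P321703 the log2 signal was 1.23 in control and 1.21 in ALKBH3 shRNA at 48 h, then 1.5 and 1.56 at 96 h. The second probe, A_23_P152002, gave -2.50 and -2.49 at 48 h, and -2.33 and -2.03 at 96 h. Knockdown differences over all arrays were 0.02 and 0.16, with limma adjusted p of 0.992 and 0.940, and both probes were higher at 96 h than at 48 h in both shRNAs.

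The effectors gave the largest difference of the family. BAX (chr19:48954875-48961798) on its probe of 10 spots, A_23_P208706, had a log2 signal of 1.36 in control and 0.80 in ALKBH3 shRNA at 48 h, then of 0.75 and 0.55 at 96 h. Within each time point ALKBH3 shRNA was lower, by 0.56 at 48 h and by 0.20 at 96 h on the log2 scale. The standard deviation between the spots of an array was 0.044 to 0.078, which does not measure the spread between arrays. Between the 2 arrays of an shRNA, which differ in time point, it was 0.43 in control and 0.17 in ALKBH3 shRNA. The control array at 96 h lay just below the ALKBH3 shRNA array at 48 h, so the shRNAs overlapped. The difference of -0.38 (standard error 0.24, 95% interval -1.02 to 0.26) did not pass in limma (unadjusted p = 0.181, adjusted p = 0.813). Under the replicate block its unadjusted p was 0.0256 and the limma adjusted p 0.159.

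The second BAX probe, A_33_P3341144, is assigned to another BAX transcript, with log2 signals of -3.05 and -3.29 at 48 h and -3.08 and -3.12 at 96 h, control first. Both ALKBH3 shRNA arrays were below both controls, with differences of -0.24 and -0.04 (overall -0.14, limma adjusted p = 0.904). BAK1 (chr6:33572552-33580276), the other effector, changed sign between time points. Its log2 signal was 2.55 in control and 2.67 in ALKBH3 shRNA at 48 h, then 2.50 and 2.30 at 96 h, a difference of -0.04 over all arrays (95% interval -0.48 to 0.40).

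**Figure D2:**
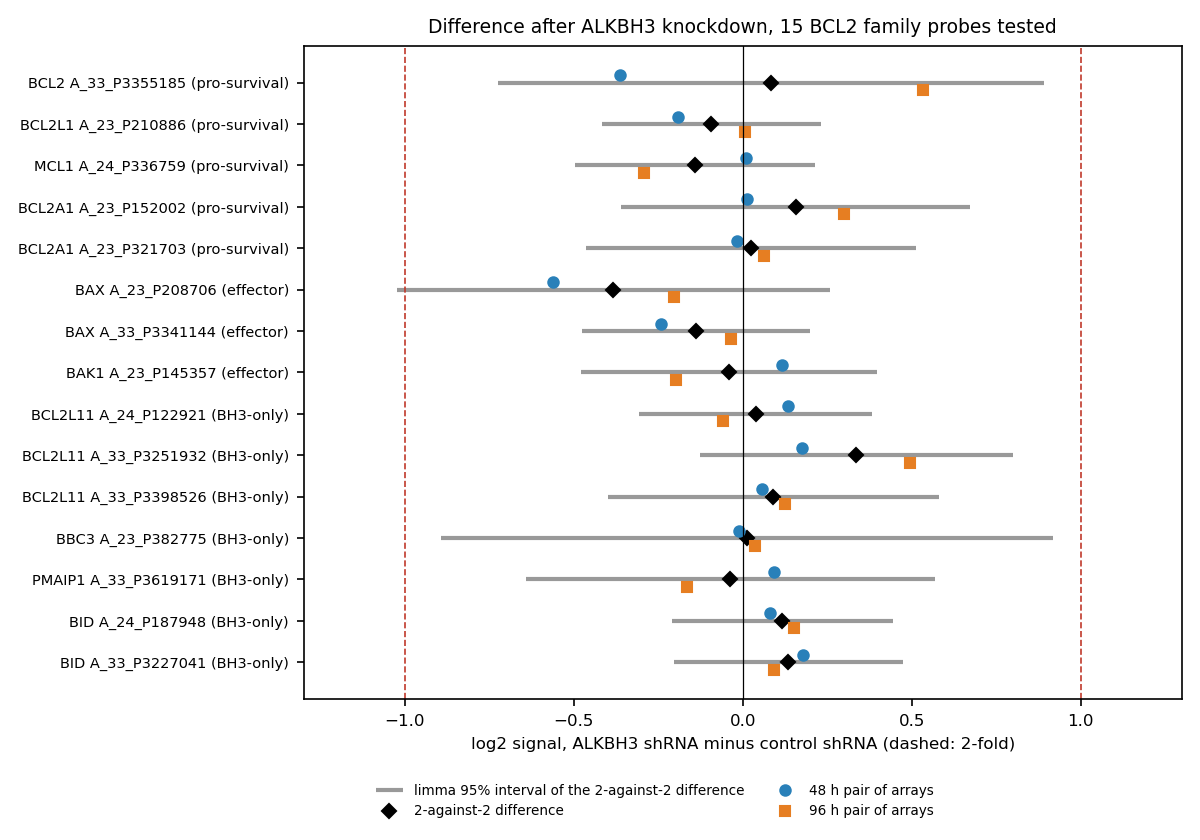
Log2 signal of ALKBH3 shRNA minus control shRNA (x axis) for the 15 BCL2 family probes tested (y axis), at 48 h (circles) and 96 h (squares) and over 2 arrays against 2 (diamonds), with the 95% interval from limma (bars) and 2-fold marked by dashed lines. All diamonds lie between -0.38 (BAX) and 0.34 (BCL2L11), and every interval includes 0.

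The 3 genes outside the family whose pattern over the 4 arrays was nearest to that of BAX, by Euclidean distance between log2 signals centred on the mean of each gene, were GPER1 (0.046), NR1D2 (0.070) and PXK (0.071). Like BAX, each was highest in control at 48 h and lowest in ALKBH3 shRNA at 96 h. These genes were picked from all probes tested for this likeness, so it only describes them.

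BH3-only genes were slightly higher in 6 of 7 probes, beside 50.6% of all probes tested. BCL2L11 and BID each have more than 1 of the 7 probes. BBC3 was among the 6 at 0.01, but was at -0.02 with median centring and at -0.05 after normexp background correction. The median log2 difference of the 7 probes was 0.09, and 0 passed. BCL2L11 (chr2:111120914-111168445), which encodes BIM, had 3 probes. On A_33_P3251932 the log2 signal was -2.05 in control and -1.87 in ALKBH3 shRNA at 48 h, then -1.97 and -1.47 at 96 h. Both ALKBH3 shRNA arrays lay above both controls, and the difference of 0.34 (95% interval -0.13 to 0.80) had the lowest unadjusted p of the family, 0.119 in limma (adjusted p = 0.757). With the replicate block it was 0.0333 (limma adjusted p = 0.179). The difference was 0.14 without the ALKBH3 shRNA array at 96 h and 0.53 without that at 48 h.

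The other BCL2L11 probes differed less. A_33_P3398526, assigned to the same transcript, gave -2.97 and -2.91 at 48 h and -2.69 and -2.57 at 96 h, a difference of 0.09. On A_24_P122921, assigned to another transcript, the values were -0.78 and -0.65 at 48 h and -0.78 and -0.84 at 96 h, a difference of 0.04 that changed sign between time points. The 3 probes thus differed by 0.04 to 0.34 for 1 gene.

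BID (chr22:17734138-17774665), which links death receptors to mitochondria once caspase-8 has cleaved it, was higher in ALKBH3 shRNA on both probes at both time points. Probe A_33_P3227041 gave 1.73 in control and 1.91 in ALKBH3 shRNA at 48 h, then 1.89 and 1.98 at 96 h. On A_24_P187948 the log2 signal was 1.53 and 1.61 at 48 h, and 1.59 and 1.74 at 96 h. The shRNAs did not overlap on either probe, but the differences were 0.13 and 0.12, with limma adjusted p of 0.908 and 0.921.

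PMAIP1 (chr18:59899996-59904305), which encodes NOXA, an antagonist of MCL1, was 1.56 in control and 1.65 in ALKBH3 shRNA at 48 h, then 1.28 and 1.12 at 96 h. BBC3 (chr19:47220824-47232860) encodes PUMA, which binds all pro-survival members. Its log2 signal was -1.73 in control and -1.74 in ALKBH3 shRNA at 48 h, then -2.44 and -2.41 at 96 h. For both genes the arrays grouped by time point and not by shRNA, and the knockdown differences were -0.04 and 0.01 (limma adjusted p = 0.992 and 0.996).

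Under the replicate block, which removes the mean of each time point, 0 of 15 member probes had a limma adjusted p below 0.05, against 2.95% of all probes. Unadjusted, 2 of 15 were below 0.05 in limma (the BAX probe of 10 spots and BCL2L11 A_33_P3251932), a smaller share than the 22.9% of all probes.

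The second comparison set the arrays of 96 h against those of 48 h, over both shRNAs. Each time point was hybridised on its own slide, so time and slide cannot be told apart. BBC3 gave the largest difference of the family, with PMAIP1 also lower at 96 h and both BCL2A1 probes higher. With the same cutoffs 0 of 15 member probes were called, against 0.992% of 23275 probes tested. At an unadjusted limma p below 0.05 there were 4 of 15 (BBC3, PMAIP1, BCL2A1 A_23_P321703 and BCL2L11 A_33_P3398526), against 19% of all probes, and in 7 of 15 the time points did not overlap, against 53%. These shares were near the background or below it, while the median absolute log2 difference was 0.24 in the members and 0.17 over all probes. Of the epithelial markers 4 of 5 were lower at 96 h, among them CDH1 with a log2 difference of -1.33 (limma adjusted p = 0.189, and 0.0258 with the shRNA as a block) and EPCAM with -0.45 (0.639, and 0.0438 with the block). TMPRSS2 was at -0.55 (limma adjusted p = 0.135, and 0.0333 with the block). The part of these markers in the results was not tested.

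BBC3 was lower at 96 h by 0.72 on the log2 scale in control shRNA and by 0.67 in ALKBH3 shRNA. The difference of -0.70 (standard error 0.093, 95% interval -0.94 to -0.45) had an unadjusted p of 0.00109 and an adjusted p of 0.122 in limma. With the shRNA as a block the limma adjusted p was 0.0270, which made BBC3 the 1 member probe of 15 below 0.05 in that fit, against 10.8% of all probes. With a 1.5-fold cutoff in place of 2-fold BBC3 was likewise the 1 member probe called, against 6.05% of all probes.

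PMAIP1 was lower at 96 h by 0.28 in control and by 0.54 in ALKBH3 shRNA (log2 difference -0.41, limma adjusted p = 0.186, and 0.0733 with the shRNA block). The BCL2A1 probes were higher by 0.31 each, from 0.17 to 0.45 within an shRNA (limma adjusted p = 0.210 for A_23_P321703 and 0.310 for A_23_P152002). BAX differed by -0.42 on the probe of 10 spots (limma adjusted p = 0.369) and by 0.07 on the other, so its probes did not show 1 direction. BAK1 was lower by 0.05 in control and by 0.36 in ALKBH3 shRNA. BCL2L11 A_33_P3398526 was higher by 0.31 (limma adjusted p = 0.230) and A_24_P122921 was at -0.09. For BCL2L1 and MCL1 the overall differences were 0.004 and 0.007, with opposite signs in the 2 shRNAs.

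**Figure D3:**
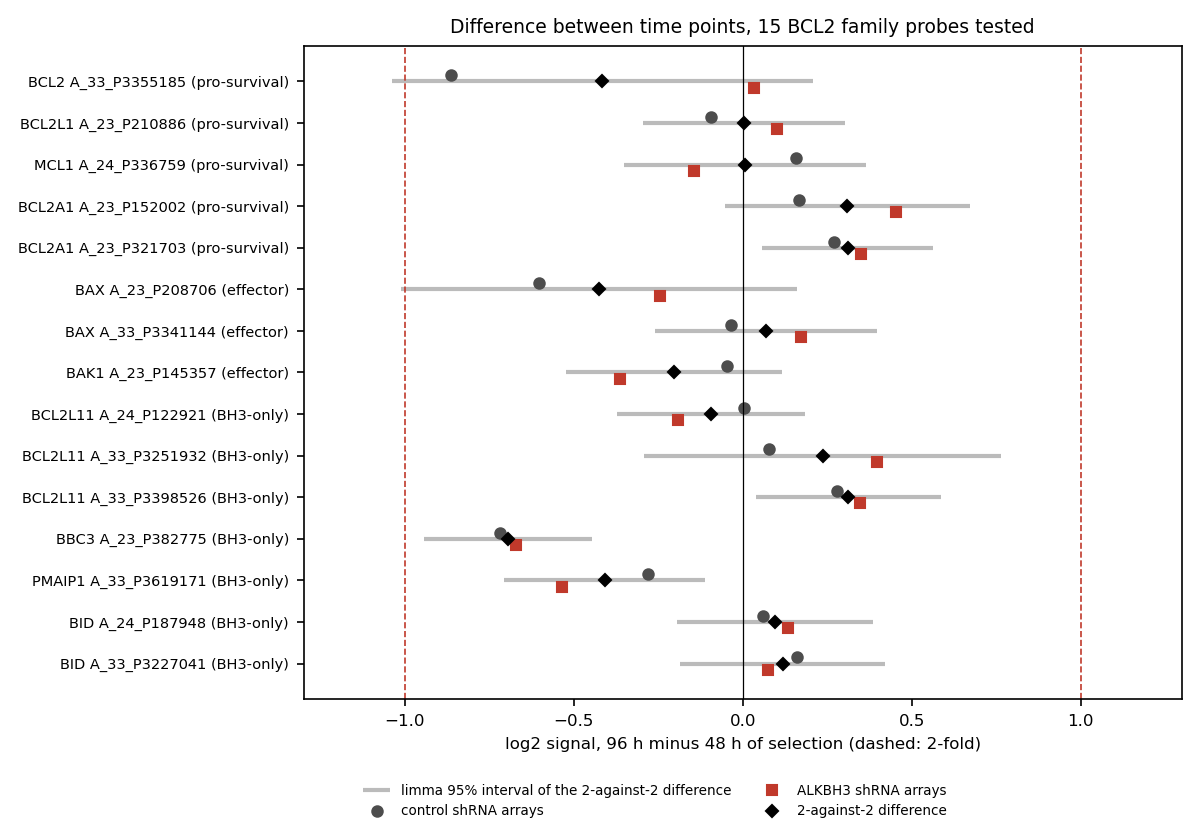
Log2 signal at 96 h minus 48 h (x axis) for the 15 BCL2 family probes tested (y axis), in control shRNA (circles), in ALKBH3 shRNA (squares) and over 2 arrays against 2 (diamonds, with the 95% interval from limma as bars). The BBC3 values, -0.72 and -0.67, are the closest to the dashed 2-fold line among the members whose shRNAs agree in sign.

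Around the family, 52 other genes of the apoptosis pathway were taken as 6 lists, and 50 of them were tested, with 1 probe a gene. In ALKBH3 shRNA 24 were higher and 26 lower, with a median log2 difference of -0.02. At an unadjusted limma p below 0.05 there were 4 higher (BIK, BIRC3, BIRC2 and CASP10) and 2 lower (APAF1 among them), 6 of 50 against 7.66% of all probes. The cutoffs of the study were passed by 1 gene, BIK, and the limma adjusted p with the replicate block was below 0.05 for 3, BIK, BIRC3 and CASP10, that is for 1 and 3 of 50 genes, against 1.12% and 2.95% of all probes.

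BIK, a further BH3-only gene, was the one called among the 12 other family genes tested. Its log2 signal was -2.14 in control and -1.17 in ALKBH3 shRNA at 48 h, then -1.96 and -0.91 at 96 h. Both ALKBH3 shRNA arrays stood above both controls, by 0.97 and 1.05, and the difference of 1.01 had an unadjusted limma p of 0.00175 (adjusted p = 0.361, and 0.030 with the replicate block). It sat at the edge of the 2-fold cutoff and was 0.98 with median centring, 0.92 without the control array at 48 h and 0.88 without the ALKBH3 shRNA array at 96 h. BCL2L10, a pro-survival relative, was the next largest of that list, at -0.34 (limma adjusted p = 0.656).

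The apoptosome and caspase list split, with 6 genes higher and 4 lower and a median of 0.01. APAF1, the scaffold of the apoptosome, was at -0.44 and -0.53 at the 2 time points (limma unadjusted p = 0.0119, adjusted p = 0.457). Among the inhibitors of apoptosis BIRC3 (cIAP2) was at 0.71 and 0.97 (overall 0.84, limma adjusted p = 0.361, and 0.0399 with the replicate block) and BIRC2 (cIAP1) at 0.36 (limma adjusted p = 0.633). XIAP, BIRC5 and BIRC6 lay between -0.05 and 0.02 on the brightest tested probe of each. A dimmer XIAP probe, A_33_P3231187, was at 0.26, with both ALKBH3 shRNA arrays above both controls (limma adjusted p = 0.714, and 0.171 with the replicate block).

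In the death receptor arm that cleaves BID, 5 of 7 genes were higher, beside 50.6% of all probes tested, with a median of 0.19. Among the 5 was FAS, at 0.54 at 48 h and -0.16 at 96 h. Another was CFLAR, at 0.19 on its brighter probe and 0.02 on its dimmer one. The count does not measure cleavage of BID. CASP10 was at 0.56 and 0.79 on its brightest probe (overall 0.67, limma adjusted p = 0.389, and 0.0497 with the replicate block), and CASP8, which cleaves BID, was at 0.50 and 0.10 (limma adjusted p = 0.865), and ran from 0.0099 to 0.59 without 1 array. Of the 4 partners in the outer mitochondrial membrane, MTCH2, the receptor of BID, differed by 0.17 and VDAC3 by 0.08, with limma adjusted p of 0.828 and 0.964. Of the 12 regulators of the members 10 were lower, beside 11482 of all 23244 probes tested. Their median was -0.12, with RELA and DDIT3 among the 10 at only -0.04, and 0 passed. FOXO1, which can drive BIM and PUMA, was at -0.58 and -0.37 (limma adjusted p = 0.773), and its overall difference of -0.47 ran from -0.78 to -0.17 without 1 array.

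**Figure D4:**
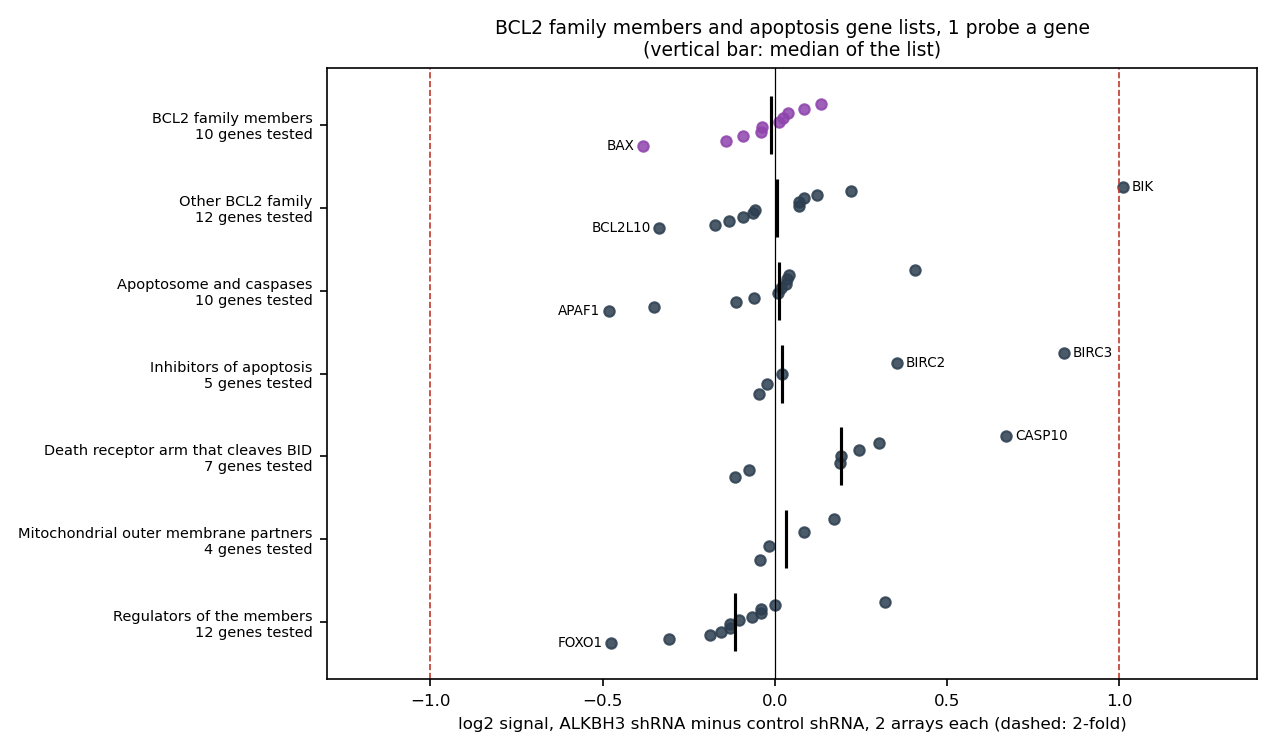
Log2 signal of ALKBH3 shRNA minus control shRNA, 2 arrays each (x axis), with 1 point a gene for the BCL2 family members and the 6 apoptosis lists (y axis); vertical bars are medians and dashed lines mark 2-fold. The 10 members lie between -0.38 and 0.13 with a median of -0.01, and BIK alone passes the 2-fold line, at 1.01.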

How the data were processed

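RNA of PC3 cells was labelled with Cy3 and hybridised to 4 one-colour Agilent arrays of 44495 spots (43118 not controls), 2 of control shRNA and 2 of ALKBH3 shRNA. The deposited scanner files hold the processed signal intensity of each spot, which the authors obtained with Agilent Feature Extraction (version 10.7.3.1 in the file headers) as background-subtracted signal. The deposited value table holds the log2 values normalized by the authors for 34172 probes, with scaling and centring not given in the sources used here. It served as an alternative, and its column medians were 7.52 to 7.54.

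Control spots and 180 to 379 spots flagged as outliers per array were left out. Processed signals were log2 transformed, the 75th percentile of each array was subtracted, and spots of 1 probe were averaged. A probe was tested where at least 0.5 of its spots were well above background on both arrays of a group. Differences were fitted with limma 3.58.1 in R 4.3.3 (lmFit, eBayes) over all probes, with Benjamini-Hochberg adjustment, and called at 2-fold with a p below 0.05, the cutoffs given with the volcano plot of the study, where p was taken here as unadjusted. The fit was tested on simulated data.

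Accessions named 24910 of 34127 probes through the RefSeq table of GRCh38.p14, and the other 9217 were unnamed. Where 1 value is given for a gene it is that of the tested probe with the highest mean signal. Named genes were ALKBH3, every member and the 2 largest differences of each list, plus any gene called, though some list genes are not reported here by name. Members and lists were chosen with earlier results of these data known. Each time point lies on 1 slide, which pairs the arrays, and deviations from the group means of arrays of a time point correlated at 0.66. Alternatives were other scalings, background corrections, filters, probe summaries, tests and cutoffs, the block, and leaving out each array. With 1 array for each shRNA and time point, the difference of the effect between time points has no test.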

Additional observations from a re-analysis of the deposited data

Results flagged for a closer look

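For 8 of the 15 member probes tested, the difference between ALKBH3 shRNA and control shRNA had opposite signs at 48 h and 96 h. With 1 array for each shRNA and time point the change between time points was not tested. Given as the difference at 96 h minus that at 48 h, in log2 units, it was 0.90 for BCL2 (A_33_P3355185), whose control array at 96 h was not well above background, -0.32 for BAK1, -0.30 for MCL1 and -0.26 for PMAIP1. It was 0.20 for BCL2L1, -0.19 for BCL2L11 (A_24_P122921), 0.080 for BCL2A1 (A_23_P321703) and 0.046 for BBC3. For BCL2L1, MCL1, BCL2A1 and BBC3 one of the 2 differences lay within 0.02 of 0.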

How the results depend on the processing

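No member probe was called after knockdown under any of the alternatives run, and for 96 h against 48 h 1 was called (BBC3) with the 1.5-fold cutoff and 0 under every other. With the replicate block (paired arrays of 1 time point) the limma adjusted p passed for ALKBH3 (0.0289), BIK, BIRC3 and CASP10, and for no member. Over all probes the called number was 260 after knockdown, and 113 after normexp, 108 after normexp with quantile normalization, 160 with the authors' values, 608 with no filter, 167 with the filter on all arrays, 85 with the methods' t-test, 887 at 1.5-fold, and 378 to 605 without 1 array. For 96 h against 48 h it was 231, and 66, 64, 131, 950, 140, 101, 1407 and 397 to 719 in the same order, and 151 with 1 probe a gene and 144 with the mean over probes. By adjusted p alone it was 0 in both.

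Log2 differences after knockdown that changed sign were those of BCL2 A_33_P3355185 (-0.039 with quantile normalization, -0.18 after normexp, -0.17 after both, -0.31 with the authors' values), BCL2A1 A_23_P321703 (-0.0049 with median centring), BBC3 (-0.017 with median centring, and -0.046, -0.058 and -0.066 after normexp, after both and with the authors' values) and PMAIP1 (0.011, 0.0069 and 0.00058 in the same order). For 96 h against 48 h, BCL2L11 A_24_P122921 became 0.15 as a mean over probes. The cause was not tested.

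Without 1 array, the knockdown differences that changed sign ran from -0.35 to 0.52 for BCL2, from -0.069 to 0.38 and from -0.15 to 0.20 for BCL2A1 A_23_P152002 and A_23_P321703, from -0.22 to 0.14 for BAK1, from -0.058 to 0.13 and from -0.082 to 0.26 for BCL2L11 A_24_P122921 and A_33_P3398526, from -0.35 to 0.37 for BBC3, from -0.31 to 0.23 for PMAIP1 and from -0.026 to 0.19 for VDAC3. For 96 h against 48 h they ran from -0.092 to 0.099 for BCL2L1, from -0.14 to 0.15 for MCL1, from -0.053 to 0.19 for BAX A_33_P3341144 and from -0.012 to 0.48 for BCL2L11 A_33_P3251932. The BAX difference after knockdown ran from -0.69 to -0.08, BCL2L11 A_33_P3251932 from 0.14 to 0.53, FOXO1 from -0.78 to -0.17, CASP8 from 0.0099 to 0.59, BIK from 0.88 to 1.14 and BBC3 at 96 h from -0.71 to -0.68. A lone array of an shRNA was taken to vary like the others. BCL2 is limited by its signal, near background.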

Other observations

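Several genes of the pathway lists stood apart between time points, and they are named here after their values were seen. BMF, a BH3-only gene known to respond to loss of attachment, was lower at 96 h by 1.81 in control shRNA and by 1.28 in ALKBH3 shRNA on the log2 scale, and was the one gene of the lists past the 2-fold cutoff (limma unadjusted p = 0.000416, adjusted p = 0.122, and 0.0258 with the shRNA as a block). Its second probe was not bright enough to be tested. DDIT3 (CHOP) and ATF4, transcription factors of the integrated stress response of which CHOP can act on BIM and PUMA, differed by -0.61 and -0.46. Their limma adjusted p was 0.123 and 0.151, and 0.0298 and 0.0424 in the block fit. FOXO1 was at -0.50 (limma adjusted p = 0.353, and 0.0473 in the block fit). E2F1, a cell cycle factor, was at 0.70 and ENDOG, a mitochondrial nuclease, at 0.54. For E2F1 and ENDOG the limma adjusted p was 0.123 and 0.136, and 0.0269 and 0.0332 in the block fit. In all 7 of 50 genes had an adjusted p below 0.05 in that fit, against 10.8% of all probes, and time and slide cannot be told apart.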
